A study of Saccharomyces cerevisiae with 2 samples.

Results

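The genes described here encode the proteins of the large subunit of the cytosolic ribosome in Saccharomyces cerevisiae. They are the rows of the array table whose open reading frame (ORF) carries an RPL symbol with a number and an optional A or B in the R64 annotation, or the symbol RPP0, RPP1A, RPP1B, RPP2A or RPP2B. Of 81 such genes in that annotation, 79 had a row among the 6207 ORF rows of the table, and 78 had a value on both arrays. RPL42B had a row without a value on either array, and RPL29 and RPL36B were not analysed here. RPL22B and RPL41B were found through an older systematic name.

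The large subunit joins amino acids at its peptidyl transferase centre and threads the new chain out through its tunnel, while a flexible stalk of acidic proteins recruits the elongation factors. After an ancient duplication of the yeast genome most of these proteins kept a pair of genes, named A and B, whose products are nearly or fully identical. Transcription of the whole set is known to follow growth signals through the TOR kinases, Sch9 and the promoter factors Rap1, Fhl1, Ifh1 and Sfp1, and in wild-type yeast it falls in many stresses.

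Cells of a sho1 mutant in the BY4741 background received 0.8 units of Zymolyase per ml for 3 hours at 24 °C. Zymolyase is an enzyme mixture that digests wall glucan. The other RNA on each array came from cells of the same mutant that grew on without the enzyme, so both sides of every ratio lack normal Sho1, a membrane sensor of osmotic stress, and no Sho1-competent cells were compared here. On array 1 the RNA of treated cells carried Cy3 and on array 2 it carried Cy5. A comment in the record of array 2 calls the untreated strain a hog1 mutant, against every other label. SHO1 itself had no value on either array, so the mutation could not be checked. Each deposited value is a log2 ratio of the channels without an intensity, which gives no level of any transcript, and the 2 arrays set the precision. Separate cultures are not stated for the arrays, so the difference between the 2 arrays may be technical. Each p-value rests mostly on that difference pooled over all ORFs, and only slightly on the gap of the gene itself.

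Both columns were read as deposited, and a positive value is likely higher in treated than in untreated cells. The labels present both records as one comparison of treated with untreated cells and do not state the direction. Over the 5311 ORFs with both values the columns had a Pearson r of -0.012 and a Spearman rho of -0.26, descriptions across genes that are not independent replicates. Values with the sign of array 1 turned are therefore given where they matter.

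No large subunit gene passed the test, and the median of the set lay near that of all ORFs. With p-values from limma adjusted over all tested ORFs by the Benjamini-Hochberg method, 0 of the 78 genes were called higher and 0 lower at an adjusted p of 0.05. Over all tested ORFs 0.772% were called higher and 0% lower. The lowest adjusted p among the genes was 0.743 in limma's test. At an unadjusted p under 0.05, 4 of the 78 lay below 0, or 5.13%, against 1.11% of all ORFs, and 1 lay above 0, or 1.28%, against 2.49%. Those 4 were RPL21B, RPL11B, RPL20B and RPL4B, and the 1 above 0 was RPL35A. With the sign of array 1 turned, limma called 0 of the 78 as well. In that reading 2 of them, or 2.56%, had an unadjusted p under 0.05, against 9.40% of all ORFs.

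The median log2 ratio of the 78 genes was -0.04, with -0.07 on array 1 and -0.03 on array 2. The median over all tested ORFs was -0.03, with -0.03 on array 1 and -0.02 on array 2. The 53 measured small subunit genes (RPS) had a median of -0.03, and the 32 measured genes of the mitochondrial large subunit (MRPL) had -0.01. Means of single large subunit genes ran from -0.36 to 0.30, that is from 0.781-fold to 1.23-fold. Of the 78, 53 had a mean within 0.1 of 0 on the log2 scale, or 67.9%, against 67.3% of all tested ORFs. The 95% interval of limma around each mean reached 0.27 to 0.29 to either side. For 75 of the 78 genes it excluded a change of 1.5-fold in either direction, as it did for 97.1% of all tested ORFs. The other 3 were RPL21B, RPL11B and RPL20B. These intervals draw on a spread pooled over all ORFs and hold only if both columns run the same way.

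Below 0 on both arrays were 30 of the 78 genes, or 38.5%, against 26.8% of all tested ORFs. Above 0 on both arrays were 12 of them, or 15.4%, against 14.0% of all. The other 36 had opposite signs, 17 of them above 0 on array 1 and 19 above 0 on array 2. With each array centred on its own median, 26 were below 0 on both arrays (33.3%, against 19.2% of all) and 15 above (19.2%, against 20.4%). With the sign of array 1 turned, 17 were below (21.8%, against 29.2%) and 19 above (24.4%, against 30.1%). Beyond 0.2 from 0 on both arrays with one sign were RPL4B and RPL20B alone, or 2.56%, against 3.16% of all tested ORFs.

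**Figure D1:**
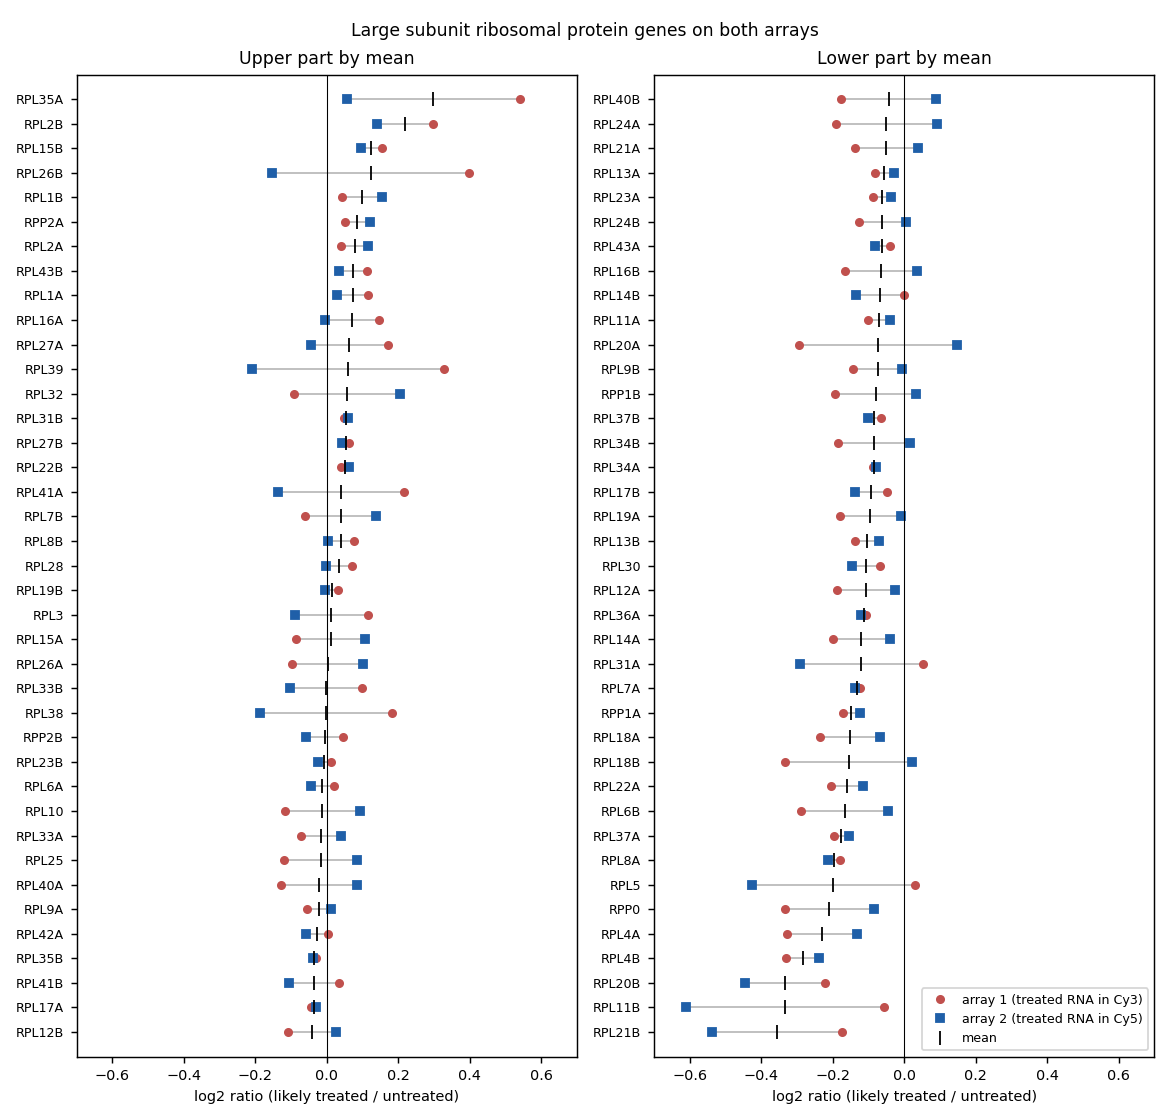
Log2 ratio (x axis) of each of the 78 measured large subunit genes (rows), ordered by the mean of both arrays, with the higher part on the left and the lower part on the right. Circles are array 1, squares are array 2 and bars are means; RPL35A leads at a mean of 0.30, RPL21B closes at -0.36, and many lines cross 0.

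The stalk genes had values on either side of 0. RPP0, the protein that anchors the stalk to the subunit, had -0.33 on array 1 and -0.08 on array 2, with a mean of -0.21 ± 0.18 (SD, n = 2 arrays; limma adjusted p = 1.00). RPP1A, an acidic protein bound to Rpp0, had -0.17 and -0.12. RPP2A, for another acidic protein of the stalk, had 0.05 and 0.12, the highest mean of the stalk as deposited, at 0.09. Turning the sign of array 1 gave another order, in which RPP0 had a mean of 0.12 and RPP2A 0.03. The remaining stalk genes, RPP1B, RPP2B and the pair RPL12A and RPL12B for the protein at the stalk base, had means between -0.11 and -0.01. Of the 7 stalk genes 3 lay below 0 on both arrays and 1 above, and their median was -0.08. These were 42.9% and 14.3%, against 26.8% and 14.0% of all tested ORFs.

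The 3 genes of the complex with 5S ribosomal RNA had a median of -0.20. RPL11B and RPL5 were among the lower ones as deposited, but their values differed between the arrays. RPL11B had -0.06 on array 1 and -0.61 on array 2, with a mean of -0.33 ± 0.39 (SD, n = 2; limma adjusted p = 1.00). RPL5, whose protein binds 5S RNA together with Rpl11, had 0.03 on array 1 and -0.43 on array 2. RPL11A had -0.10 and -0.04, with a mean of -0.07 at percentile 32.1 of all tested ORFs. The low values of RPL11B and RPL5 thus stood on array 2 alone, and RPL11B had the widest gap between the arrays of all 78 genes.

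The 9 genes grouped here as peptidyl transferase centre and core had a median of 0.01. On both arrays 3 of them lay below 0 and 3 above, or 33.3% each, against 26.8% and 14.0% of all tested ORFs. Both genes of Rpl4, which lines the tunnel, were below 0 on both arrays. RPL4B had -0.33 on array 1 and -0.24 on array 2, with a mean of -0.28 ± 0.07 (SD, n = 2; limma adjusted p = 1.00, 0.821-fold). RPL4A had -0.33 and -0.13, with a mean of -0.23 ± 0.14. The genes of Rpl2, which is needed to form the active centre, were above 0 on both arrays. RPL2B had 0.30 on array 1 and 0.14 on array 2, with a mean of 0.22 ± 0.11 (limma adjusted p = 1.00, 1.16-fold), and RPL2A had 0.04 and 0.11. In the turned reading of array 1 the means were 0.05 for RPL4B, 0.10 for RPL4A, -0.08 for RPL2B and 0.04 for RPL2A, so the first 3 changed sign. The copies of Rpl8 lay on opposite sides of 0, RPL8A with -0.18 and -0.21 and RPL8B with 0.07 and 0.002. Among the single-copy genes of the core, RPL3 had 0.12 and -0.09, RPL10 had -0.12 and 0.09, and RPL28 had 0.07 and -0.003. Those 3 had opposite signs on the arrays and means within 0.04 of 0.

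The tunnel exit genes included RPL35A, which had the highest mean of the whole set as deposited. RPL35A had 0.54 on array 1 and 0.06 on array 2, with a mean of 0.30 ± 0.34 (SD, n = 2; limma adjusted p = 1.00, unadjusted p = 0.042). It lay at percentile 97.8 of all tested ORFs by mean, and most of that mean came from array 1. Its mean was -0.24 in the turned reading. RPL26B, for a protein that yeast can grow without, had 0.40 on array 1 and -0.15 on array 2. RPL39, for a very short protein in the wall of the tunnel, had 0.33 and -0.21. RPL25, for the docking site of factors that meet the new chain, had -0.12 and 0.08. Of the 12 tunnel exit genes 4 were below 0 on both arrays and 2 above, with a median of -0.01. These were 33.3% and 16.7%, against 26.8% and 14.0% of all tested ORFs. RPL11B, RPL26B, RPL39 and RPL35A had the widest gaps between arrays of the 78 genes, each lower on array 2, by 0.48 to 0.55 on the log2 scale.

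The genes of proteins facing the small subunit had a median of -0.05 over 7 genes. RPL30, whose protein represses the splicing of its own transcript, had -0.07 on array 1 and -0.15 on array 2. RPL41A, for the smallest ribosomal protein, had 0.22 and -0.14. The pair that encodes ubiquitin fused to Rpl40 gave like values for both copies. RPL40A had -0.13 on array 1 and 0.09 on array 2, and RPL40B had -0.18 and 0.09. Both copies had opposite signs on the arrays, in the same order.

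The lowest large subunit gene as deposited was RPL21B, with -0.17 on array 1 and -0.54 on array 2. Its mean was -0.36 ± 0.26 (SD, n = 2; limma adjusted p = 0.743, unadjusted p = 0.0143), at percentile 0.132 of all tested ORFs. RPL20B had -0.22 on array 1 and -0.45 on array 2, averaging -0.33 ± 0.16 (SD, n = 2; adjusted p = 0.837 in limma's test). Both were below 0 on both arrays and lower on array 2. With the sign of array 1 turned the means were -0.18 for RPL21B and -0.11 for RPL20B. Among the higher genes outside the core and tunnel, RPL15B had 0.15 and 0.09, with a mean of 0.12 ± 0.04 (SD, n = 2). Its mean was -0.03 in the turned reading. RPL1B, for a protein of the mobile arm by which spent transfer RNA leaves, had 0.04 and 0.15. For the 38 measured genes outside the places named above the median was -0.06. Of these, 16 lay below 0 and 5 above 0 on both arrays, or 42.1% and 13.2%, against 26.8% and 14.0% of all tested ORFs.

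**Figure D2:**
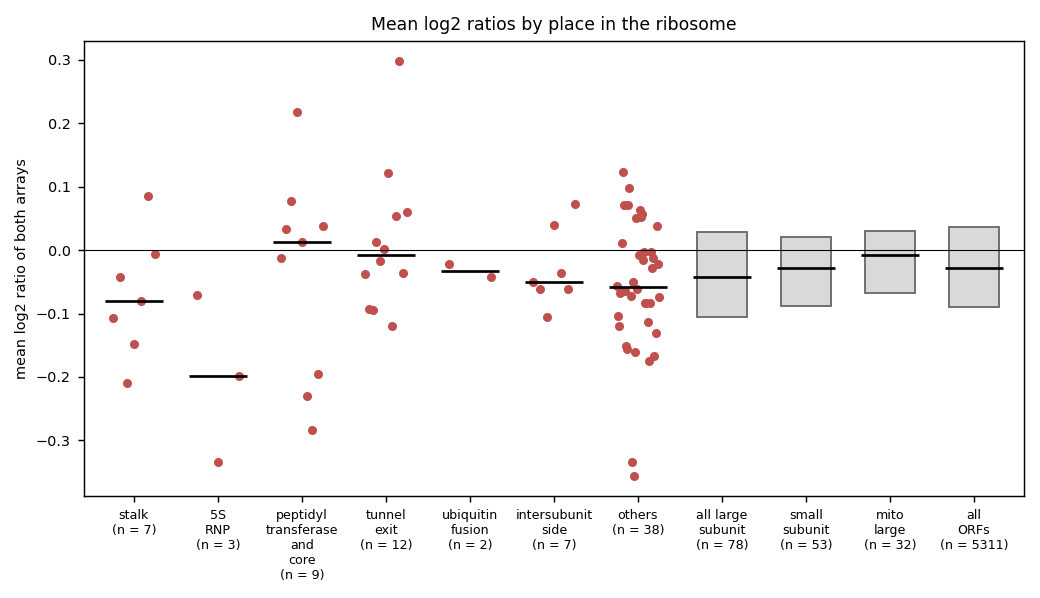
Mean log2 ratio of both arrays (y axis) for each large subunit gene (points), grouped by place in the ribosome, with the median of each group as a line. Boxes at the right span the quartiles, with the median as a line, for all 78 large subunit genes, 53 small subunit genes, 32 mitochondrial large subunit genes and all 5311 tested ORFs; the 4 boxes overlap.

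The A and B copies were compared within each array, where both copies met the same labelled RNA. All 4 values were present for 33 pairs. The difference in log2 ratio, A minus B, had one sign on both arrays in 16 of the 33 pairs, 7 with A higher and 9 with B higher. With the sign of array 1 turned it had one sign in the other 17. Of 21 small subunit pairs, 9 had one sign. The median size of the mean difference was 0.09, against 0.05 for the small subunit pairs. The median SD of the difference between the arrays was 0.14 for the large subunit pairs and 0.10 for the small subunit pairs. The differences were not tested, and they are given as values with their SD over 2 arrays. Paralogues share sequence, so labelled cDNA of one copy may bind the spot of the other, and the extent of this is not known here.

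In 8 of the 33 pairs the mean difference exceeded its SD over the arrays, against 8 of the 21 small subunit pairs. Among those 8 large subunit pairs the largest was in RPL8, where the A copy had -0.18 and -0.21 and the B copy had 0.07 and 0.002. A minus B was -0.25 on array 1 and -0.21 on array 2, with a mean of -0.23 ± 0.03 (SD, n = 2). RPL22A, the main source of a protein yeast can grow without, had -0.21 and -0.11, and RPL22B had 0.04 and 0.06. A minus B was -0.21 ± 0.05 in that pair. The turned reading of array 1 gave mean differences of 0.02 in RPL8 and 0.03 in RPL22, with opposite signs on the arrays. RPL8 and RPL22 were thus alike in having the A copy below 0 and the B copy above 0 on both arrays. RPL43 had the same pattern, with -0.04 and -0.08 for the A copy and 0.11 and 0.03 for the B copy. In RPL7 the A copy had -0.12 and -0.14 and the B copy -0.06 and 0.14, a mean difference of -0.17 ± 0.15. The introns of both RPL7 copies hold a small nucleolar RNA gene, SNR39 in RPL7A and SNR59 in RPL7B. In RPL43 A minus B was -0.13 ± 0.03, in RPL37 it was -0.09 ± 0.05 and in RPL12 it was -0.06 ± 0.02. In RPL13 and RPL9 the A copy was higher, by means of 0.05 each.

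The largest mean differences rested on 1 array. In RPL35 A minus B was 0.57 on array 1 and 0.10 on array 2, with a mean of 0.33 ± 0.34 (SD, n = 2). In RPL21 it was 0.04 on array 1 and 0.57 on array 2, with a mean of 0.31 ± 0.38. The pairs RPL11 and RPL20 were like RPL21 on array 2, at 0.57 and 0.59, and had -0.04 and -0.07 on array 1. In those 3 pairs the B copy was below -0.4 on array 2 while the A copy lay between -0.05 and 0.15. In RPL2 the A copy was lower by a mean of 0.14, almost wholly from array 1. RPL26 had the widest gap between its differences, with A minus B of -0.49 on array 1 and 0.25 on array 2.

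In other pairs both copies lay on one side of 0, or their differences had opposite signs. All 4 values were below 0 in 6 pairs, RPL4, RPL11, RPL13, RPL14, RPL17 and RPL37, and above 0 in 2 pairs, RPL1 and RPL2. The pairs with the smallest mean difference were RPL34, RPL18 and RPL27, at -0.001 to 0.01. Each had A above B on array 1 and A below B on array 2, by about 0.09 to 0.11 on either array. Across pairs the values of the A and B copies had a Pearson r of 0.28 on array 1 and -0.14 on array 2 (n = 33). For the 21 small subunit pairs r was 0.60 on array 1 and 0.71 on array 2. Spearman rho on array 1 was close in the large and small subunit pairs, at 0.41 and 0.45. On array 2 it was -0.07 and 0.69. These coefficients are descriptions, since all pairs share the same labelled RNA and spots of a pair can share cDNA.

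**Figure D3:**
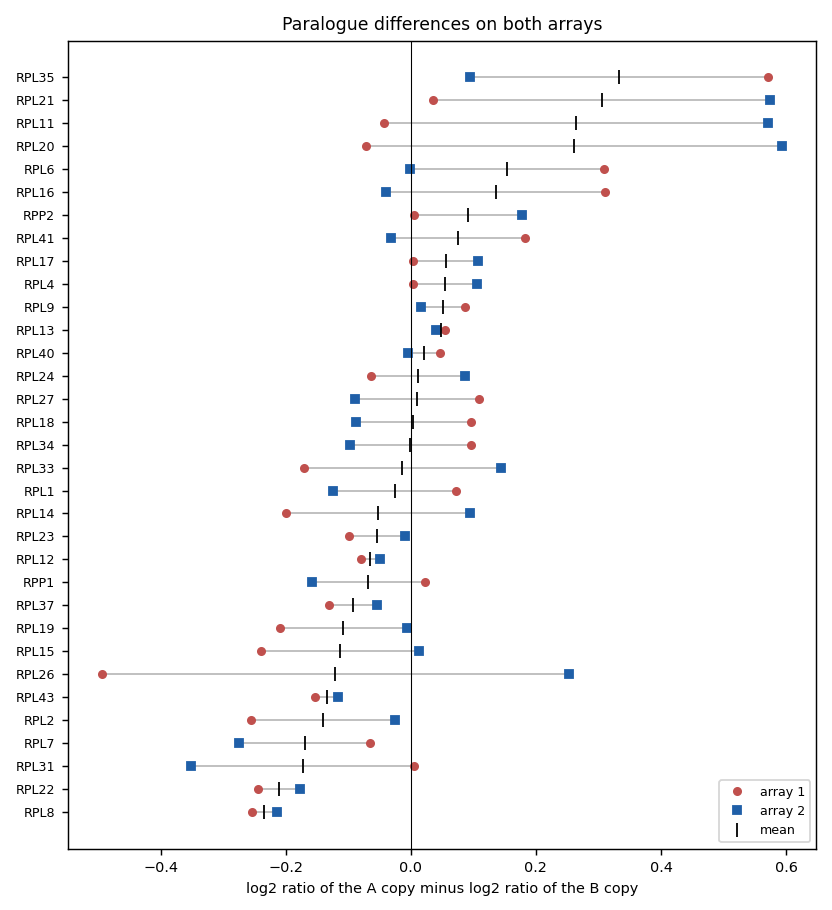
Log2 ratio of the A copy minus that of the B copy (x axis) for 33 pairs of large subunit genes (rows), ordered by the mean of both arrays. Circles are array 1, squares are array 2 and bars are means; RPL8 and RPL22 have close values below 0, and RPL35, RPL21, RPL11 and RPL20 have means of 0.26 to 0.33 with points far apart.

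Most single-copy genes had opposite signs on the arrays, and so did most tested ORFs. Of all tested ORFs 29.2% were above 0 on array 1 only and 30.1% on array 2 only. The median of the 10 measured single-copy genes was -0.01. On both arrays 2 lay below 0 and 0 above 0, or 20% and 0%, against 26.8% and 14.0% of all tested ORFs. Those 2 were RPP0 and RPL30. The other 8 had opposite signs, among them RPL32 with -0.09 on array 1 and 0.20 on array 2 and RPL38 with 0.18 and -0.19. The median of the 68 measured A and B genes was -0.05. On both arrays 28 lay below 0 and 12 above 0, or 41.2% and 17.6%, against the same shares of all tested ORFs. The median size of the gap between the arrays was 0.23 for single-copy genes and 0.12 for A and B genes, a difference that was not tested.

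Between the arrays the large subunit genes had a Pearson r of 0.06 and a Spearman rho of 0.06 (n = 78 genes). The small subunit genes had -0.48 and -0.26 (n = 53), and all tested ORFs had -0.01 and -0.26. These are descriptions over genes that share arrays and dyes. The median size of the gap between the arrays was 0.13 for large subunit genes, 0.13 for small subunit genes and 0.17 for all tested ORFs. With the sign of array 1 turned, RPL11B had the lowest mean of the 78 genes, at -0.28 (adjusted p = 0.627 in limma's test). RPL26B had -0.28 as well (limma adjusted p = 0.505) and RPL39 had -0.27 (limma adjusted p = 0.493), and RPL26B and RPL39 were the 2 with an unadjusted p under 0.05. RPL20A had the highest mean of the 78 genes in that reading, at 0.22 (limma adjusted p = 0.524).

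**Figure D4:**
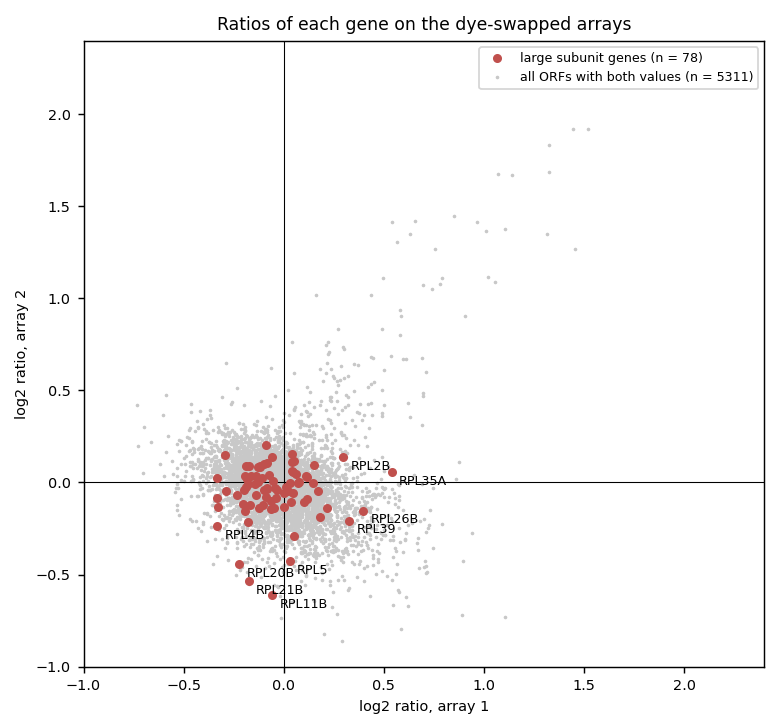
Log2 ratio on array 1 (x axis) against array 2 (y axis) for the 78 large subunit genes (large red points) and all 5311 ORFs with both values (small grey points). The large subunit genes lie within the central cloud, with RPL35A furthest to the right at 0.54 and RPL11B lowest at -0.61, and none lies in the tail at the upper right.

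Genes that control or assemble the large subunit had no call either. All 12 listed regulators of ribosomal protein genes were measured, 0 passed limma's test in either direction, and their median was -0.05. As deposited, 7 of them, or 58.3%, were below 0 on both arrays and 1, or 8.33%, above. Of all tested ORFs 26.8% were below and 14.0% above. TOR1, a kinase that couples nutrients to growth, had the highest mean as deposited, at 0.13, followed by IFH1, the coactivator of these promoters, with 0.24 on array 1 and -0.12 on array 2. TOD6, a repressor of ribosome production, and CRF1, a corepressor that competes with Ifh1, had the lowest, at -0.15 and -0.12. After turning array 1 the means were 0.02 for TOR1, -0.18 for IFH1, -0.003 for TOD6 and 0.07 for CRF1. All 49 listed factors of large subunit assembly and export were measured, 0 passed limma's test in either direction, and their median was -0.04. Of these 21, or 42.9%, were below 0 on both arrays as deposited and 3, or 6.12%, above, against the same 26.8% and 14.0%. SDO1, which helps to free the factor Tif6 from the new subunit, had -0.21 on array 1 and -0.26 on array 2. DRS1, an RNA helicase, had -0.41 on array 1 and 0.09 on array 2, and its mean of -0.16 was close to those of SPB4, ALB1 and SSF2, which lay below 0 on both arrays. TIF6 itself had 0.09 and 0.18, and NIP7 had 0.29 and -0.03. The 5 chaperones dedicated to particular large subunit proteins had a median of -0.03, with 0 past limma's test. They ran from ACL4, the chaperone of Rpl4, at -0.09 and BCP1 at -0.06 to SQT1, the chaperone of Rpl10, at -0.02 and SYO1, which escorts Rpl5 and Rpl11, at 0.02.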

How the data were processed

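Two-colour arrays compared RNA of treated and untreated sho1 cells. The authors deposited 1 log2 ratio per ORF and array, the unit being found from the values: linear ratios, as powers of 2, fell on steps of 0.0001 for 100% of values, with a tolerance of 1% of a step. Direction, scanner and any background correction or normalization of an array are not stated in the sources. The column medians were -0.03 and -0.02, and values were used as deposited. Array 1 held 5552 ORF values and array 2 held 5347; 2 control rows were left out. Of 6207 ORF rows, 5654 were named by R64 locus tag and 20 by an older systematic name.

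The mean of both arrays was tested against 0 over all 5311 ORFs with both values by limma 3.58.1 in R 4.3.3, with lmFit on an intercept and a two-sided eBayes test, with 1 residual and 23.5 prior degrees of freedom. Adjusted p-values are Benjamini-Hochberg over all tested ORFs at a threshold of 0.05. The fit was tested on simulated data with 200 changed among 5311 ORFs. It recovered 10% of the 1.2-fold and 90% of the 1.5-fold changes. The simulated arrays ran the same way and had independent normal noise, which is not known for the deposited columns. The recovery may therefore not carry over to these data. The alternatives were centring, scaling, the sign of array 1 turned, each array alone, the inclusion of ORFs valued on 1 array, robust variances, a test against 1.2-fold and a threshold of 0.1. The members, lists and tests were chosen with earlier results of these data known. Genes named are the 6 highest and 6 lowest, the 6 pairs with the largest difference of one sign on both arrays and the 3 with the smallest, the 4 with the widest gap between arrays, single-copy genes and genes without a value, and 2 at each end of each pathway list; other members were named after their values were seen. Mating type markers gave no call: 4 of 4 markers of MATa cells and 2 of 4 of MATalpha cells were measured, with medians of 0.07 and -0.08. Python 3.11.15 with pandas 2.3.3, numpy 2.4.6 and matplotlib 3.10.9 was used for tables and plots.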

Additional observations from a re-analysis of the deposited data

How the results depend on the processing

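The count of large subunit genes past limma's test was 0 under every alternative run, with 0 to 5 at an unadjusted p under 0.05 and a lowest adjusted p of 0.493 to 1.00. Over all ORFs the count was 41; it was 0 with array 1 turned (499 at an unadjusted p under 0.05), 25 when tested against 1.2-fold, and between 31 and 61 under the others. The median of the large subunit genes was -0.042; it was -0.014 with centred arrays and 0.0095 with array 1 turned. Turning array 1 also gave 17 genes below 0 and 19 above 0 on both arrays, against 30 and 12, and a median size of the A minus B difference of 0.098, against 0.092; scaled arrays gave 0.084. With 1 array left, 47 to 49 genes were below 0, 29 to 31 were above 0, and the median size of the A minus B difference was 0.0954 to 0.0964. Of the 36 named genes, 21 changed sign with array 1 turned, 3 with centring, 10 without replicate 1 and 4 without replicate 2, and 0 passed limma's test in these fits (tested fits only; a single array gives no test). The cause was not tested. Each ratio already pairs treated with untreated RNA on 1 array. No further block by replicate number could be fitted, since both arrays belong to 1 group. The 2 arrays set the precision, and no reason for the differences between them was tested.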

Other observations

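In the R64 gene order, large subunit genes lay side by side at 2 places. RPL24A and RPL30, which point away from each other, had means of -0.05 and -0.11, with 0.09 and -0.15 on array 2. RPL13A and RPP1A, which point towards each other, had -0.06 and -0.15, and each was below 0 on both arrays. The large subunit genes were short, with a median gene length including introns of 815 bp, against 768 bp for small subunit genes and 1242 bp for all ORFs with a length.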
